A study of Rattus norvegicus with 31 samples.

Results

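The 10 genes described here are Cps1, Otc, Ass1, Asl, Arg1, Nags, Hal, Gls2, Sds and Cdh1, a set of urea cycle and amino acid enzymes and 1 adhesion gene that are used as markers of the periportal zone of the liver lobule. They were chosen by name, with earlier results of these data known. All 10 were found among the 26312 genes of the count table. They were also among the 19904 that were tested because their counts summed to 2 or more over all rats. The samples were livers of 31 young adult female Wistar (Crl:WI) rats, which received either vehicle or test compounds once a day by oral gavage over 28 days. The control group held 8 rats on aqueous carboxymethyl-cellulose, the vehicle that all groups shared. The insecticides thiacloprid (THI, 108 mg/kg bw/day, 4 rats) and clothianidin (CTD, 288 mg/kg bw/day, 3 rats) and the fungicide imazalil (IMZ, 93 mg/kg bw/day, 4 rats) were given alone. The mixtures, with 4 rats each, were THI + IMZ (54 and 46 mg/kg bw/day), THI + CTD (54 and 134 mg/kg bw/day) and IMZ + CTD (46 and 135 mg/kg bw/day). The CTD group was smaller because 1 or more rats of that dose were killed in moribund condition, so its values come from the survivors. Each rat was an independent biological replicate, and the liver hilus with its connective tissue had been removed before freezing.

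The liver disposes of ammonia through the urea cycle, which is most active in the hepatocytes around the portal vein, where blood rich in amino acids enters the lobule. Nags makes the cofactor that switches on Cps1, and Cps1 and Otc carry out the mitochondrial steps, while Ass1, Asl and Arg1 complete the cycle in the cytosol and release urea. Gls2, Hal and Sds release ammonia from glutamine, histidine and serine in the same zone, and the transcription of several of these enzymes responds to feeding, glucagon and glucocorticoids. Cdh1 encodes E-cadherin, the adhesion protein of epithelial cells, which in the liver is found on bile duct cells and on periportal hepatocytes.

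Promoter sequences from RefSeq (build GRCr8) were at hand for 6 of the 10 genes, namely Cps1, Otc, Ass1, Asl, Nags and Gls2. The 250 bases before the start of Ass1 (chr3:35149480-35149729, + strand) and Asl (chr12:32295658-32295907, + strand) are shown because both genes fell with CTD, and those of Cps1 (chr9:76063613-76063862, + strand) because it did not pass the test in any treatment. Capitals mark matches, on either strand, to 6 motifs. For core promoters these were TATAAA, known from general initiation sites, CCAAT, known from many housekeeping promoters, and GGGCGG, which Sp1 proteins recognise. For regulated promoters they were TGACG, part of cAMP response elements, AGAACA, part of a glucocorticoid receptor site, and TTGCNNAA, the pattern of C/EBP proteins.
Ass1: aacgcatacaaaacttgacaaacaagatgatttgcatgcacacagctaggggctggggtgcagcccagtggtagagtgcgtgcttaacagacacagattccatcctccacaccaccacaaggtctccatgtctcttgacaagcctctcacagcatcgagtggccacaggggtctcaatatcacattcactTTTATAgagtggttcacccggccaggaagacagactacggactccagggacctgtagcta
Asl: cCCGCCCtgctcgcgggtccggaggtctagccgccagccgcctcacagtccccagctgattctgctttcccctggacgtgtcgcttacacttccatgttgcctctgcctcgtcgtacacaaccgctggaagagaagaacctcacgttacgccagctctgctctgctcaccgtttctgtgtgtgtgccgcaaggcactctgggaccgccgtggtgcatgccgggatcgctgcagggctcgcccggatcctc
Cps1: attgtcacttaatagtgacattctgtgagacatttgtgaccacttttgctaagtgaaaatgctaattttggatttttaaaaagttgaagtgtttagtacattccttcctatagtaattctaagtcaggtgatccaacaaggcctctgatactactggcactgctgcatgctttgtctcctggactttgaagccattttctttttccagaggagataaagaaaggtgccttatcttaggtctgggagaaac
The Ass1 window held 1 TATAAA match on the opposite strand, 60 to 55 bases before the start, and 12.9% of all 33469 promoters held this motif in a window of the same length. The Asl window held 1 GGGCGG match on the opposite strand, 249 to 244 bases before the start, a motif found in 30.5% of all promoters. No match lay in the Cps1 and Otc windows. The Nags window held 2 GGGCGG matches that overlapped by 1 base, and the first of the 2 windows listed for Gls2 held 5 matches, of which 2 were GGGCGG, 2 TGACG and 1 CCAAT. The shares of all promoters with the other motifs were 34% for CCAAT, 18.2% for TGACG, 17.5% for AGAACA and 9.22% for TTGCNNAA. The windows of Ass1, Asl and Cps1 differed in base composition, with 51.2%, 64% and 38% G or C.

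Counts per library ran from 31.8 M to 101 M, the controls having a median of 60.5 M and all other rats 40.2 M, and the sample labels name no sequencing batch. The 10 genes were well covered, with between 634 counts (Sds) and 761198 counts (Cps1) in a library. The hepatocyte markers summed to 186577 to 248553 CPM in the controls, where CPM stands for counts scaled to a library size normalised by TMM, and 0 of 7 passed the test in THI, IMZ, CTD and IMZ + CTD, 1 of 7 was higher in THI + IMZ (Apoa1) and 1 of 7 lower in THI + CTD (Serpina1). The red blood cell markers moved with CTD: their summed level was 22.2 to 52.2 CPM in the controls and 124 to 149.8 CPM in the CTD rats, with 3 of 4 genes higher and 1 lower, and 29.5 to 172 CPM in the THI + CTD rats, with 1 of 4 higher, while it was 15.7 to 91.2 CPM in the other 4 treatments. Of the sinusoidal endothelial markers 2 of 7 were lower in CTD (251 to 315 CPM against 294 to 367 CPM in the controls) and 1 of 7 in THI + CTD (263 to 329.7 CPM), and of the Kupffer cell markers 1 of 7 was lower in each of these groups (224 to 325 and 231 to 284 CPM against 276 to 444 CPM, with 189.7 to 451 CPM in the other 4 treatments). Stellate cell and fibroblast markers had 1 of 7 higher and 1 of 7 lower in both, and of the lymphocyte markers none of 7 passed the test in any treatment (by the same edgeR test), although the THI + CTD rats, at 7.09 to 8.46 CPM, lay below all controls at 9.22 to 14.8 CPM, while the CTD rats had 7.18 to 17.3 CPM. These lymphocyte sums are low, and 1.82% of single genes tested lay wholly below the controls in THI + CTD. The pancreas markers were at lower summed levels in the treated rats with and without CTD, at 194 to 468 CPM in the controls, 17.7 to 137 CPM in CTD, 21.4 to 144.9 CPM in THI + CTD, 59.4 to 126.9 CPM in THI, 57.4 to 180.9 CPM in THI + IMZ, 97.6 to 206 CPM in IMZ and 82 to 215 CPM in IMZ + CTD. Almost all of it came from Cpa1, the 1 of 4 that passed the test, in CTD and THI + CTD, while Prss1, a defining marker, was at 0 CPM in the controls and in CTD. Over all genes tested, 12.7% were called in CTD, 4.39% in THI + CTD and 1.18% in THI + IMZ. The part of these marker shifts in the results below was not tested. In whole tissue, fewer cells of a type and less RNA per cell cannot be told apart.

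A single edgeR model held all 7 groups, its quasi-likelihood test set each treatment against the 8 control rats, and p-values were adjusted over 19904 genes (Benjamini-Hochberg, two-sided, threshold 0.05). A log2 fold change is a difference of mean levels, given with its standard error (SE). In CTD, 5 of the 10 genes fell (Ass1, Asl, Hal, Sds and Cdh1), where 12.7% of all genes tested were called and 6.03% were called lower. In THI + CTD, Hal and Cdh1 fell, 2 of the 10 genes, where 4.39% of all genes were called and 1.71% were called lower. None of the 10 genes passed the test in THI, IMZ, THI + IMZ and IMZ + CTD, where 0.543%, 0.251%, 1.18% and 1.46% of all genes were called, although 3, 4, 4 and 6 of them had an unadjusted p under 0.05. The Wald test of DESeq2 called 0, 2, 0 and 2 of the 10 in these groups. The shares of all genes at an unadjusted p under 0.05 or called by DESeq2 are not given here. The shares above do not apply to these counts. Of the 60 differences from control, 50 were negative, and the 7 called were all lower. The share of negative differences over all genes is not given here, and the medians over all genes were also below 0. The median log2 fold change of the 10 genes was -0.37 in CTD (all genes tested: -0.07), -0.32 in IMZ (-0.02), -0.30 in THI + CTD (-0.03), -0.22 in IMZ + CTD (-0.03), -0.19 in THI (-0.01) and -0.17 in THI + IMZ (-0.02). The 6 comparisons share their controls, so these values are not independent of each other. Reads per gene depend on transcript length, which was not used here, so levels are compared between groups for each gene and not between genes.

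**Figure D1:**
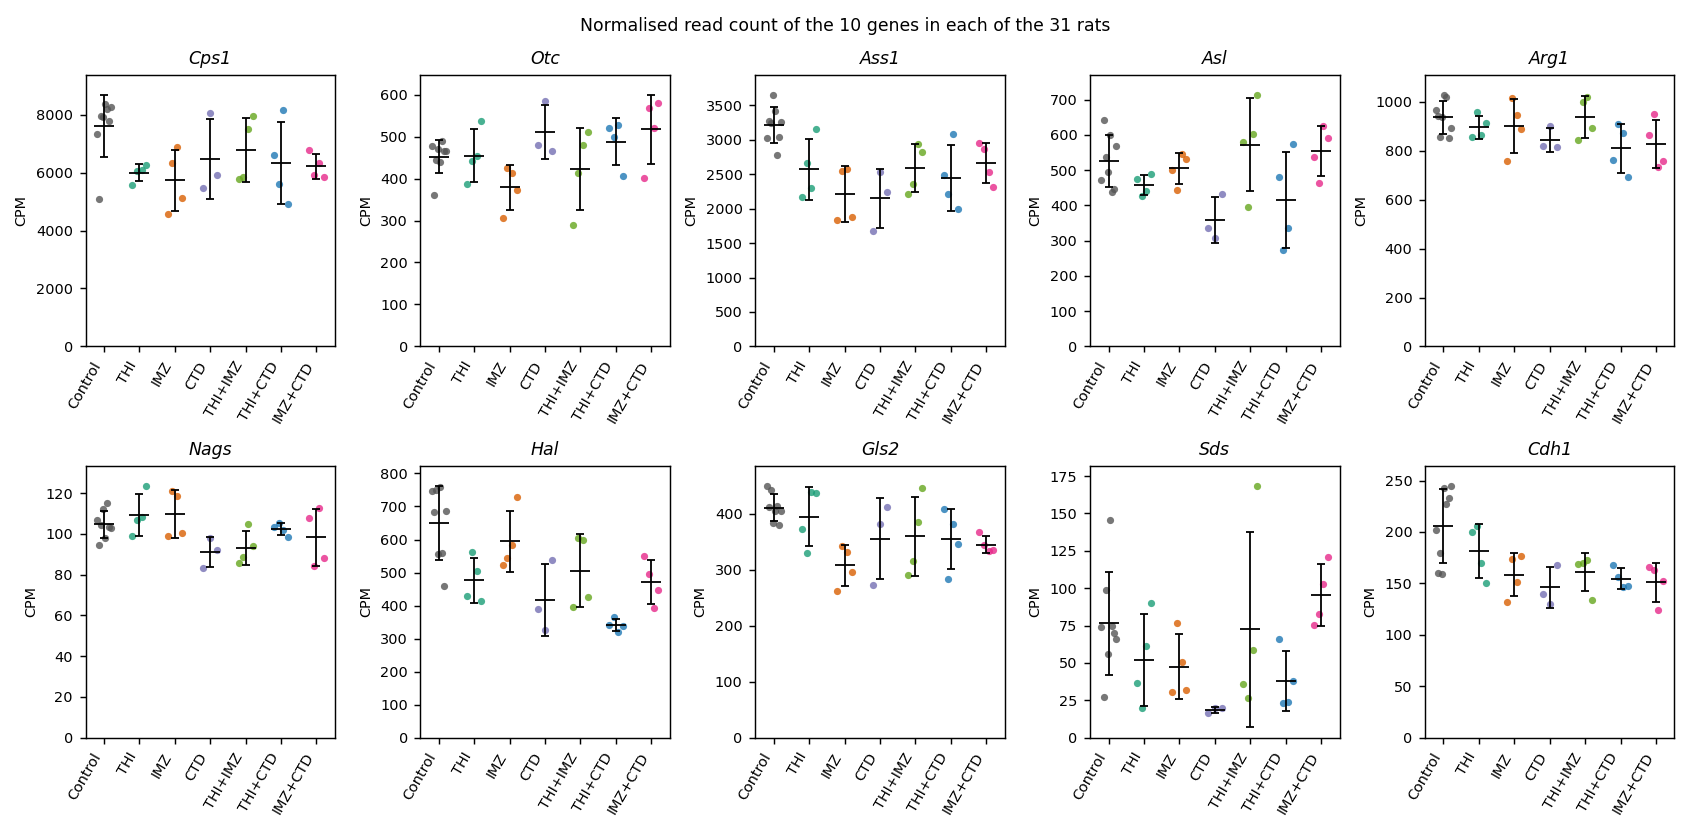
Normalised read count (CPM, linear axis from 0) of each of the 10 genes in the 31 rats by group; each point is 1 rat, the horizontal bar is the group mean and the vertical line 1 SD to either side. The 3 CTD rats sit at 16.5 to 19.8 CPM for Sds, below all 8 controls, and the 4 THI + CTD rats sit at 321 to 367 CPM for Hal, also below all controls. This held for 5.48% of all genes tested in CTD and 1.82% in THI + CTD.

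In the mitochondrial part of the cycle, Nags, Cps1 and Otc did not pass the test in any treatment. Cps1, the ammonia-fixing enzyme, ran from 5086 to 8381 CPM in the controls with a median of 7931 CPM, and its level was 4578, 6328, 6871 and 5139 CPM in the IMZ rats. The difference in IMZ was -0.41 (SE 0.14, adjusted p = 0.30, edgeR), the lowest of the 6 for this gene, and the others lay between -0.34 in THI and -0.17 in THI + IMZ. All 6 differences of Cps1 were negative, and in THI, IMZ and IMZ + CTD the rats overlapped with the controls because of 1 control rat alone. Control replicate 2 had 5086 CPM while the other 7 controls had 7343 CPM or more. It was also the lowest control for Otc (362 CPM), Nags (94.8 CPM) and Sds (27.5 CPM) and the highest for Asl (643 CPM), and had the smallest library of the controls with 32.7 M counts. Without it the Cps1 differences were -0.41 in THI (adjusted p = 0.18, edgeR), -0.48 in IMZ (0.11), -0.36 in IMZ + CTD (0.17) and -0.30 in CTD (0.16), and none passed the test. This rat was singled out after its values had been seen. The share of all genes that would separate without 1 control is not given here.

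Otc, which joins carbamoyl phosphate to ornithine, had 362 to 489 CPM in the controls with a median of 466 CPM. Its differences went both ways, from -0.25 (SE 0.12, adjusted p = 0.62, edgeR) in IMZ to 0.20 (SE 0.12, adjusted p = 0.53) in IMZ + CTD. The IMZ rats had 305, 424, 413 and 373 CPM, and the IMZ + CTD rats 401, 569, 520 and 581 CPM, so 3 of the 4 rats of the mixture lay above all controls. So did 3 of the 4 THI + CTD rats and 1 rat each in CTD, THI and THI + IMZ. The share of all genes with such partial separation is not given here. The 95% intervals reached from -0.51 to 0.00 in IMZ and from -0.05 to 0.45 in IMZ + CTD. Nags varied least of the mitochondrial members, with 94.8 to 115 CPM in the controls and a median of 104 CPM. In CTD, where its adjusted p was lowest, its levels were 83.3, 98 and 92.3 CPM, and the difference of -0.20 (SE 0.09) did not pass the test (adjusted p = 0.16, edgeR). In THI and IMZ the Nags differences were 0.06 and 0.07, with 95% intervals from -0.10 to 0.23 in both.

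In the cytosolic part, Ass1 and Asl fell with CTD. Ass1, which joins citrulline and aspartate, had 2785 to 3654 CPM in the controls (median 3256 CPM) and 1682, 2529 and 2241 CPM in the CTD rats. All CTD rats lay below all controls, as for 5.48% of all genes tested. The difference of -0.58 (SE 0.14, adjusted p = 0.0064, edgeR) corresponds to a level 0.669 times that of the controls, and without CTD replicate 1, the lowest rat, it was -0.43 (adjusted p = 0.10). The 4 IMZ rats, with 1841, 2552, 2579 and 1872 CPM, also lay below all controls, which held for 0.553% of all genes. The difference in IMZ, -0.54 (SE 0.13), was close to that in CTD but did not pass the test (adjusted p = 0.075). It passed when only the groups compared were fitted (adjusted p = 0.033) and by the Wald test of DESeq2 (0.0052), and in the edgeR fit without CTD replicate 1 (0.048). In THI + CTD the Ass1 levels were 2485, 2216, 3085 and 1988 CPM and the difference was -0.39 (SE 0.13, adjusted p = 0.075), and here too both of these alternatives passed (0.045 and 0.023), as did the edgeR fit without THI + CTD replicate 3 (0.033). The remaining differences were -0.32 in THI, -0.31 in THI + IMZ and -0.27 in IMZ + CTD, so that Ass1 was negative in all 6 treatments.

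Asl, which splits argininosuccinate into arginine and fumarate, had 439 to 643 CPM in the controls (median 516 CPM) and 336, 307 and 433 CPM in the CTD rats. All 3 CTD rats lay below all controls, as for 5.48% of all genes tested, the highest of them by a small margin. The difference was -0.55 (SE 0.17, adjusted p = 0.030, edgeR), and it did not pass without CTD replicate 1 (-0.50, adjusted p = 0.13) or without CTD replicate 2 (-0.45, 0.18). In THI + CTD the rats spread widely, with 481, 273, 335 and 573 CPM, and the difference of -0.34 (SE 0.15) did not pass the test (adjusted p = 0.24), though without replicate 4, the highest rat, it was -0.53 and passed (0.048). In THI + IMZ and IMZ + CTD the Asl differences were 0.12 and 0.08, with 95% intervals from -0.18 to 0.43 and from -0.23 to 0.38. Arg1, which releases urea from arginine, had 852 to 1029 CPM in the controls (median 939.6 CPM). In THI + CTD, where its adjusted p was lowest (0.20), the rats had 763, 910, 874 and 693 CPM and the difference was -0.21 (SE 0.09). In THI + IMZ the mean levels of Arg1 differed by 0.00 (95% interval -0.18 to 0.18).

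**Figure D2:**
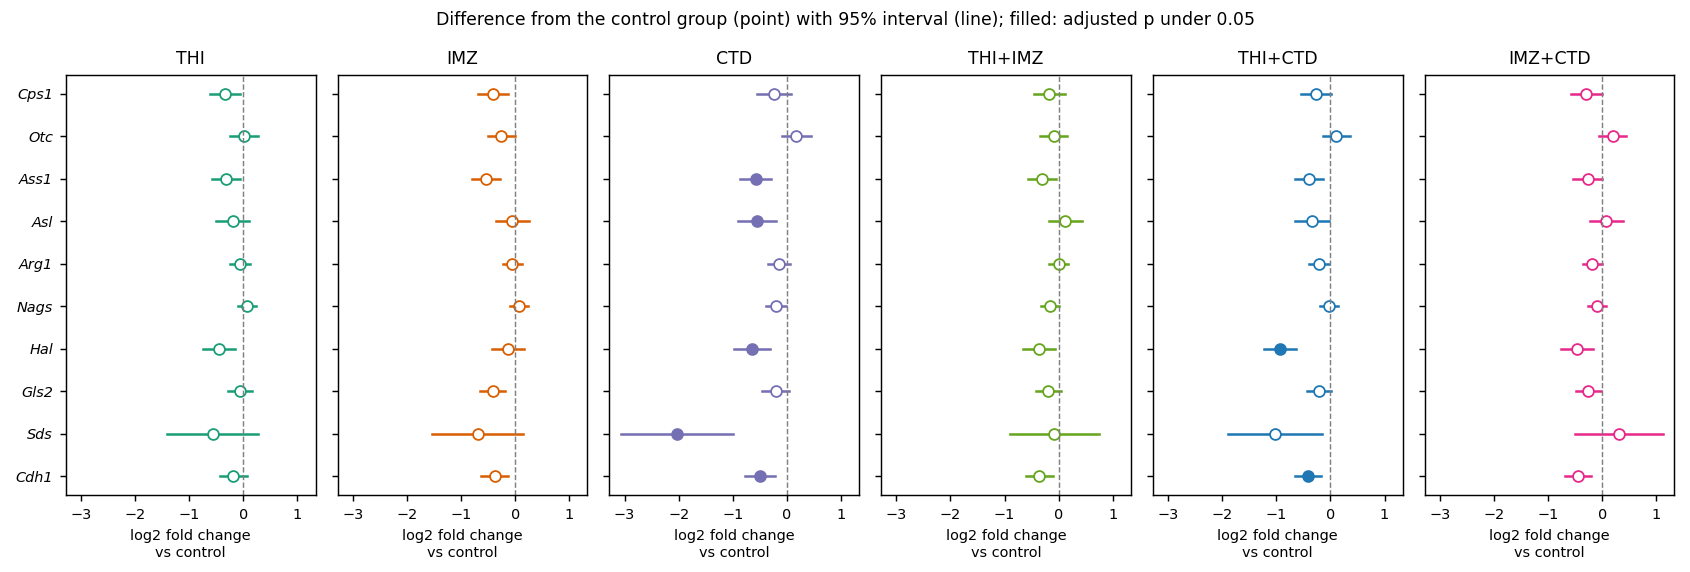
Log2 fold change against control (horizontal axis, points) with its 95% interval (lines) for the 10 genes in the 6 treatments; filled points passed the test of edgeR (adjusted p under 0.05). The filled points are 5 genes in CTD, with Sds at -2.04, and Hal and Cdh1 in THI + CTD, at -0.93 and -0.42.

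Hal fell in THI + CTD and in CTD. The gene encodes histidine ammonia-lyase, which removes the amino group of histidine as the first step of its breakdown, and it had 458 to 758 CPM in the controls with a median of 686 CPM. In THI + CTD the rats had 342, 367, 321 and 338 CPM. These 4 values lie close together and below all controls, as for 1.82% of all genes tested. The difference was -0.93 (SE 0.15, adjusted p = 0.00023, edgeR), a level 0.525 times that of the controls, and it passed the test under each of the 8 other settings and with each of the 31 rats left out. In CTD the rats had 388, 327 and 537 CPM, 2 of them below all controls, and the difference was -0.64 (SE 0.16, adjusted p = 0.0072). It did not pass without CTD replicate 1 (adjusted p = 0.056) or without CTD replicate 2 (0.092). In IMZ + CTD the rats had 551, 495, 392 and 447 CPM, a difference of -0.46 (SE 0.14) that did not pass the test (adjusted p = 0.11, with 0.039 by the Wald test of DESeq2 and 0.0495 without Control replicate 7). The differences in THI, THI + IMZ and IMZ were -0.45, -0.36 and -0.13, with adjusted p = 0.25, 0.30 and 0.84.

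The 3 further genes of the histidine route were on the list of amino acid catabolism and were set beside Hal after their values had been seen. Uroc1, which acts on the urocanate that Hal makes, had a mean of 299 CPM in the controls and fell in CTD to 202 CPM (-0.57, SE 0.16, adjusted p = 0.015, edgeR). Amdhd1, the enzyme of the next step, fell in THI + CTD from 239.9 to 101 CPM (-1.25, SE 0.22, adjusted p = 0.00078), and its difference in CTD was -0.64 (SE 0.24, adjusted p = 0.075). Ftcd, which passes the last carbon unit of histidine to folate, fell in CTD from 565 to 328 CPM (-0.79, SE 0.15, adjusted p = 0.00036), while in THI + CTD its difference was -0.15 (SE 0.13, adjusted p = 0.58). Thus 3 of the 4 genes fell in CTD and 2 of 4 in THI + CTD, and none of the 4 passed the test in the other treatments (edgeR). Over all genes tested, 6.03% were called lower in CTD and 1.71% in THI + CTD. Since the 3 further genes were picked after their values had been seen, these counts are a description and no test of the route.

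**Figure D3:**
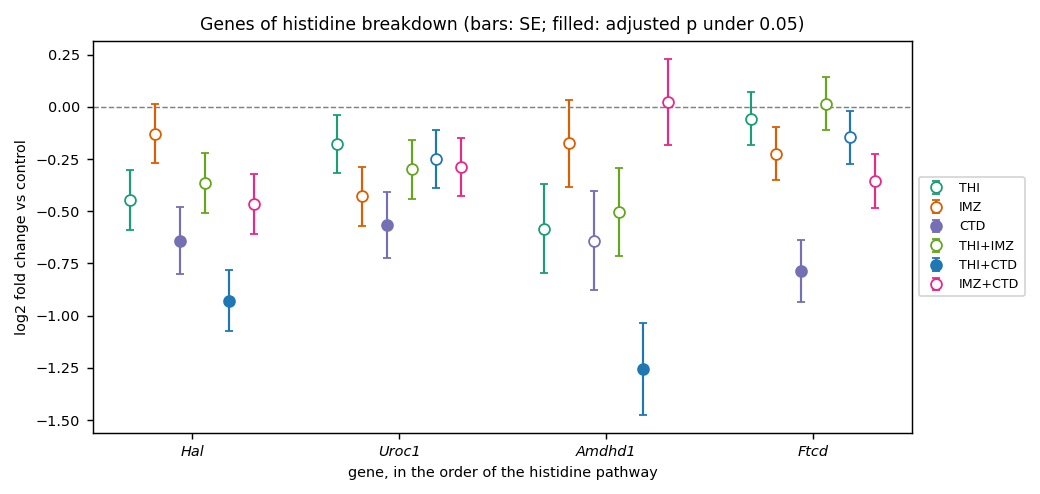
Log2 fold change against control (vertical axis) of the 4 genes of histidine breakdown in the 6 treatments, in pathway order; bars are 1 SE to either side and filled points passed the test of edgeR. In THI + CTD the filled points are Hal (-0.93) and Amdhd1 (-1.25), and in CTD they are Hal (-0.64), Uroc1 (-0.57) and Ftcd (-0.79).

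Sds, the serine dehydratase that turns serine into pyruvate and ammonia, had the largest change and the largest spread. The controls ran from 27.5 to 146 CPM with a median of 72 CPM and a coefficient of variation of 44.9%, against 6.04% to 17.5% for the other 9 genes. The CTD rats had 16.5, 19.8 and 19.8 CPM, close to each other and all below all controls, as for 5.48% of all genes tested. The difference was -2.04 (SE 0.51, adjusted p = 0.0065, edgeR), a level 0.244 times that of the controls, and it passed with each of the 31 rats left out, though not under 1 of the 8 other settings. In THI + CTD the rats had 66, 23.3, 23.7 and 38.1 CPM, 2 of them below all controls, and the difference of -1.02 (SE 0.42) did not pass the test (adjusted p = 0.19). In IMZ + CTD, with nearly the same dose of CTD, the rats had 75.2, 82.9, 103 and 121 CPM, within the range of the controls, and the difference was 0.31 (SE 0.40, adjusted p = 0.77). In THI + IMZ 1 rat stood apart with 168 CPM while the others had 35.9, 26.5 and 58.9 CPM, and without it the difference moved from -0.08 to -0.92 (adjusted p = 0.36). Sdsl, the related gene on the list of amino acid catabolism, had a mean of 7.27 CPM in the controls and a difference of -0.04 (SE 0.19, adjusted p = 0.93) in CTD.

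Gls2, the liver form of glutaminase, did not pass the test in any treatment. Its level was the steadiest of the 10 genes in the controls, at 379 to 449 CPM with a median of 408 CPM. The IMZ rats had 262, 342, 331 and 295 CPM, all below all controls, and the IMZ + CTD rats had 367, 344, 333 and 334 CPM, also all below all controls, where 0.553% and 1.01% of all genes did so. The difference in IMZ was -0.42 (SE 0.11, adjusted p = 0.13, edgeR), and it passed when only the groups compared were fitted (adjusted p = 0.030) and by the Wald test of DESeq2 (0.028). The difference in IMZ + CTD was -0.25 (SE 0.11, adjusted p = 0.33), and those in CTD, THI + CTD, THI + IMZ and THI were -0.21, -0.21, -0.19 and -0.06.

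Cdh1 fell in CTD and in THI + CTD. The controls ran from 159 to 245 CPM with a median of 214 CPM. The CTD rats had 139, 130 and 168 CPM and the THI + CTD rats 168, 157, 146 and 147 CPM, so that 2 of 3 and 3 of 4 lay below all controls. The differences were -0.50 (SE 0.14, adjusted p = 0.013, edgeR) and -0.42 (SE 0.12, adjusted p = 0.042). The call in CTD was lost without CTD replicate 1 (adjusted p = 0.075) or 2 (0.098) and under 1 of the 8 other settings, and the call in THI + CTD was lost without any of its own 4 rats or any of 5 controls, replicates 1, 5, 6, 7 and 8 (0.052 to 0.14), and under 3 of the 8 other settings, among them no filter on low counts (0.056) and a fit of only the groups compared (0.061). In IMZ + CTD the rats had 166, 163, 124 and 152 CPM, with a difference of -0.45 (SE 0.12, adjusted p = 0.055) about as large as those called. It passed by the Wald test of DESeq2 (0.015), with the stricter filter of filterByExpr (0.046) and in the edgeR fits without any of Control replicates 2, 3 and 4, THI replicate 4 or THI + IMZ replicate 4 (0.024 to 0.048). The differences in IMZ, THI + IMZ and THI were -0.38, -0.36 and -0.18. The markers of bile duct cells, the other source of E-cadherin in liver, summed to 11.4 to 15.9 CPM in the controls, 14.2 to 17.6 CPM in CTD and 14.6 to 20.1 CPM in THI + CTD, and 0 of 7 passed the test (edgeR) in any treatment.

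Genes around the cycle were taken from fixed lists. Over all genes tested, 12.7% were called and 6.03% called lower in CTD, and 4.39% and 1.71% in THI + CTD. The shares called were 0.543% in THI, 0.251% in IMZ and 1.46% in IMZ + CTD. Of the 19 transporters and partner enzymes of the urea cycle tested, 4 fell and 0 rose in CTD, 3 fell in THI + CTD, and 1 fell in THI. They included Slc7a2, a carrier of arginine and ornithine, and Slc38a4, a carrier of neutral amino acids, in CTD (-0.70, SE 0.16, adjusted p = 0.0024, and -0.57, SE 0.13, adjusted p = 0.0029, edgeR). Oat, ornithine aminotransferase, fell from 1042 CPM to 540.2 CPM in THI (-0.95, SE 0.22, adjusted p = 0.038) and to 543 CPM in THI + CTD (-0.94, SE 0.22, adjusted p = 0.010), and Slc25a15, the mitochondrial ornithine carrier, fell in THI + CTD (-0.33, SE 0.07, adjusted p = 0.0035). The median of this list was -0.07 in CTD, as over all genes tested, and -0.18 in THI + CTD. Of 44 genes of amino acid catabolism tested, 9 fell and 1 rose in CTD, 6 fell in THI + CTD, and 1 each fell in IMZ (Mccc1, -0.49, adjusted p = 0.046) and IMZ + CTD (Prodh, -0.59, adjusted p = 0.024). Examples are Mat1a, which makes S-adenosylmethionine, in CTD (-0.62, SE 0.10, adjusted p = 9.0e-05), and Tdo2, the first enzyme of tryptophan breakdown, in THI + CTD (-1.05, SE 0.21, adjusted p = 0.0027). The gene that rose was Dld (0.43, SE 0.09, adjusted p = 0.0014), a subunit shared by several dehydrogenase complexes. The medians of this list were -0.17 in CTD, -0.15 in THI + CTD and -0.22 in IMZ.

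Among 9 other periportal genes tested, Etnppl and Aldh1b1 fell in both CTD (-0.91 and -0.87, adjusted p = 0.00088 and 0.012, edgeR) and THI + CTD (-1.01 and -0.89, adjusted p = 0.00034 and 0.010), and the other 7 did not pass the test in any treatment. Over all genes tested, 6.03% were called lower in CTD and 1.71% in THI + CTD. Of 13 pericentral genes, 1 passed the test in the same 2 treatments. Over all genes tested, 12.7% were called in CTD and 4.39% in THI + CTD, so this count is about what those shares give. Rhbg, an ammonium transporter of the pericentral hepatocytes, rose from 6.13 to 15.4 CPM in CTD (1.34, SE 0.33, adjusted p = 0.0065) and to 13.9 CPM in THI + CTD (1.19, SE 0.31, adjusted p = 0.020). The medians over these 13 genes were -0.15 in CTD, -0.12 in THI + CTD and -0.25 in THI. Of the 17 genes of glucagon and glucocorticoid regulation tested, 6 fell and 1 rose in CTD, 5 fell in THI + CTD, 2 each fell in THI and IMZ + CTD, 1 fell in THI + IMZ, and 0 of 17 passed the test in IMZ. The shares called over all genes tested were 12.7% in CTD, 4.39% in THI + CTD and 0.543% in THI. They were 1.46% in IMZ + CTD, 1.18% in THI + IMZ and 0.251% in IMZ. Klf15, a regulator of amino acid breakdown in fasting, and Foxo1, a factor held back by insulin, fell in CTD (-0.74, SE 0.15, adjusted p = 0.0011, and -0.73, SE 0.15, adjusted p = 0.00079), and the gene that rose was Creb1 (0.30, SE 0.10, adjusted p = 0.042). Igfbp1, which rises in fasting, fell in THI + CTD from 323 to 32 CPM (-3.34, SE 0.66, adjusted p = 0.0025) and in CTD to 47.3 CPM (-2.77, SE 0.73, adjusted p = 0.0094). Per1 and Tsc22d3, which respond to glucocorticoids, fell in THI (-1.45 and -0.84, adjusted p = 0.0040 and 0.0072) and in IMZ + CTD (-1.38 and -0.66, adjusted p = 0.0049 and 0.029), and both also fell in CTD (-0.96 and -0.55, adjusted p = 0.026 and 0.040). Per1 fell in THI + IMZ as well (-1.12, adjusted p = 0.024), and Tsc22d3 in THI + CTD (-0.56, adjusted p = 0.041). Tat and Tdo2 are on both this list and the list of amino acid catabolism. The median of this list was -0.44 in CTD, -0.11 in THI + CTD, -0.13 in THI, -0.04 in IMZ, -0.15 in THI + IMZ and -0.16 in IMZ + CTD.

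To ask whether the mixtures differed from what their compounds did alone, each mixture was set against a dose-weighted sum, 0.5 times the log2 fold change of THI or IMZ and 0.47 times that of CTD. Sds in IMZ + CTD was the 1 of 30 tests of the 10 genes that passed. Its sum was -1.30, made up from -0.69 in IMZ and -2.04 in CTD, and the mixture had 0.31, so that it lay 1.62 above the sum (SE 0.40, 95% interval 0.80 to 2.43, adjusted p = 0.039, edgeR), where 1.16% of all genes were called in this comparison. The call was lost without any of 9 of the 11 rats of the 3 treated groups involved, all but IMZ replicate 2 and IMZ + CTD replicate 1 (adjusted p = 0.052 to 0.14), while the value stayed between 1.48 and 1.79. In THI + CTD, Hal lay 0.40 below its sum of -0.53 (SE 0.15, adjusted p = 0.34), and 0.286% of all genes were called. In THI + IMZ, Nags was 0.23 below its sum of 0.07 (SE 0.08, adjusted p = 0.54), and 0.0151% of all genes were called. For the other 7 genes apart from Sds, Hal and Nags, the distance from the sum ran from -0.11 for Arg1 in THI + CTD to 0.36 for Asl in IMZ + CTD, and none passed the test.

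**Figure D4:**
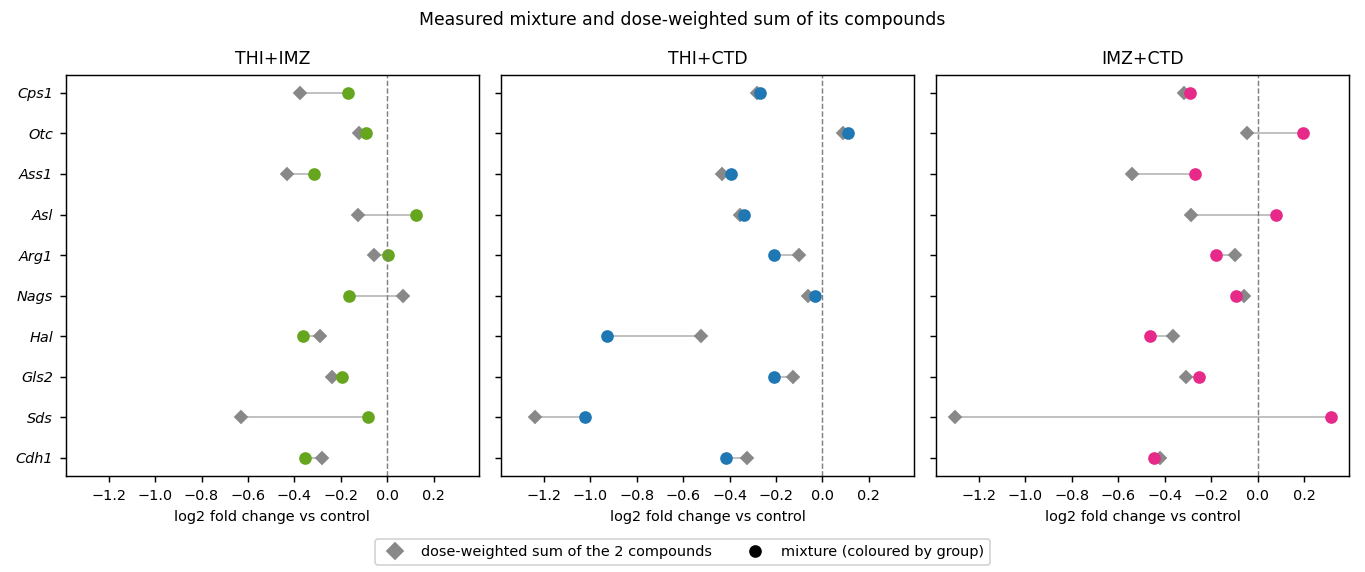
Log2 fold change against control (horizontal axis) of each mixture (circle) and the dose-weighted sum of its compounds (diamond) for the 10 genes. The longest line is Sds in IMZ + CTD, from a sum of -1.30 to a mixture value of 0.31, and for Hal in THI + CTD the mixture lies 0.40 below its sum.

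Across all 7 groups, 4 of the 10 genes differed (Hal, Ass1, Cdh1 and Sds with adjusted p = 0.00093, 0.022, 0.024 and 0.032, edgeR), where 9.51% of all genes tested were called. Among the 6 treated groups alone, Hal and Sds differed (adjusted p = 0.031 and 0.048), where 5.82% of all genes were called, and with most of the 31 rats left out in turn 0 or 1 of the 10 genes passed. Asl, with 0.092, came next, and for Cps1, Ass1, Arg1, Gls2 and Cdh1 the adjusted p lay between 0.46 and 0.85. The mean level of Hal was lowest in THI + CTD (342 CPM), followed by CTD (417), IMZ + CTD (471), THI (477), THI + IMZ (506), IMZ (595) and control (650 CPM). For Sds the order was CTD (18.7 CPM), THI + CTD (37.8), IMZ (47.5), THI (52), THI + IMZ (72.4), control (76.7) and IMZ + CTD (95.5 CPM). Neighbours in both orders overlapped in the values of their rats, except that the 3 CTD rats lay below the 4 THI + CTD rats for Sds. Since the doses of the compounds differed, these orders are not a comparison of the compounds.

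Rats of the same group also varied in a pattern that split the 10 genes. With the group means subtracted, over 31 rats, Cps1, Otc, Ass1 and Nags were positively related to each other (Pearson r from 0.42 to 0.68), and Gls2 to all 4 of them (0.44 to 0.59) and to Sds (0.65). Asl was negatively related to Arg1 (r = -0.55), and for Hal and Cdh1 the highest r with any of the 10 genes was that with each other (0.37). These values are a description, since the genes share libraries and depth. The 8 controls alone showed only part of this pattern. Cps1, Otc and Nags were positively related there (r from 0.56 to 0.87). Ass1 had r = -0.04 with Cps1, -0.30 with Otc and -0.31 with Nags. Gls2 had r from -0.33 to -0.02 with Cps1, Otc, Ass1 and Nags, and Asl and Arg1 had 0.06. Within the 8 controls, the only group large enough for a test, 5 of the 45 pairs had an unadjusted p under 0.05 by the exact permutation test of Pearson's r (two-sided), and 0 passed after adjustment over the 45 pairs (lowest adjusted p = 0.083). By Spearman's rho 3 of the 45 pairs had an unadjusted p under 0.05 (lowest adjusted p = 0.33). Otc and Nags had r = 0.80 (exact permutation p = 0.0037, adjusted p = 0.083, rho = 0.88, exact permutation p = 0.0072, adjusted p = 0.33), and r = 0.66 without the 2 rats farthest from the median of Otc. Otc and Asl had r = -0.80 (exact permutation p = 0.0029, adjusted p = 0.083, rho = -0.81) and r = -0.64 without those 2 rats. Cps1 and Otc had r = 0.87 (exact permutation p = 0.095, rho = 0.07), but r = -0.14 without the 2 rats farthest from the median of Cps1, so that it rests on those rats.

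**Figure D5:**
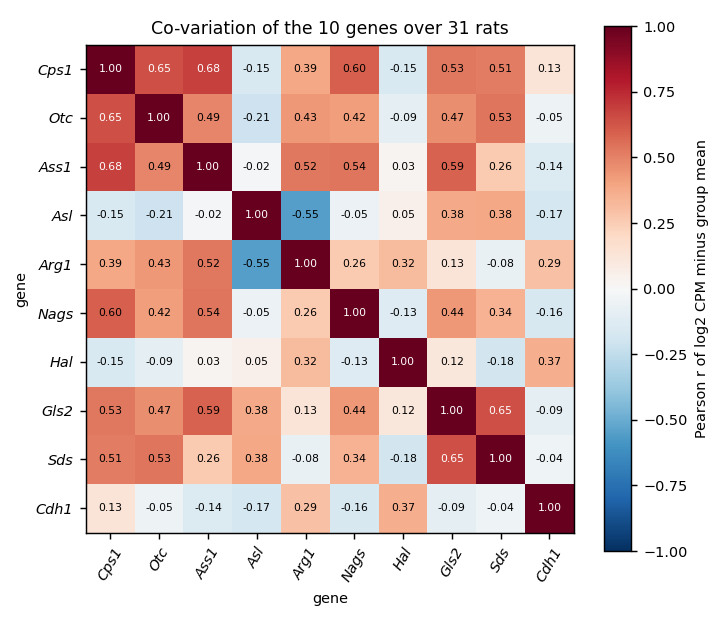
Pearson r between the 10 genes over 31 rats, from log2 CPM with the mean of each group subtracted; red is positive, blue is negative, and both axes list the genes. Cps1, Otc, Ass1, Nags and Gls2 form a block of positive values, while Asl and Arg1 have -0.55. In the 8 controls alone, Ass1 and Gls2 were not positively related to Cps1, Otc and Nags, and Asl and Arg1 had 0.06.

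The gene most like each of the 10 by this measure, among 10875 genes with a symbol and a mean log2 CPM above 0, was Ttc38 for Otc (r = 0.89), Sdhb for Ass1 (0.85), Got1 for Asl (0.79), Slc35b4 for Arg1 (0.80), Acot13 for Nags (0.77), Zfp952 for Hal (0.79), Ndrg2 for Gls2 (0.82), Rnase4 for Sds (0.84) and Zmat1 for Cdh1 (0.72), over 31 rats of 7 groups. For Cps1 it was the gene labelled Tas1r2 in the table (0.89), a label that is uncertain because RefSeq gives Aldh4a1 both as an older name of Tas1r2 and as the gene next to it.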

How the data were processed

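RNA-Seq was performed on livers of 31 rats, and 10 genes were described across 7 groups taken from the sample labels. The authors' libraries came from total RNA by a stranded kit and were read in pairs, with FastQC 0.11.5, STAR 2.5.2b, DESeq2 1.15.1 and the build Rnor_5.0 in the submitters' processing notes. The strand setting of the counting is not given in the sources used here. The authors deposited raw counts per gene, which were used for all tests, and a normalised signal, which equalled the counts divided by a size factor per library and was used to recompute the control correlations. All columns were matched to samples (0 left over).

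Counts with a sum of at least 2 were tested with edgeR 4.0.16 (R 4.3.3, TMM, quasi-likelihood, 1 model with 7 group means, Benjamini-Hochberg over 19904 genes). Log2 CPM used a prior count of 2. DESeq2 1.42.0, limma 3.58.1 (as part of edgeR), Python 3.11.15 and matplotlib 3.10.9 were also used. The biological coefficient of variation was 19.4%. Library totals (31.8 M to 101 M counts) limit the precision less than the spread among 3 to 8 rats. Tested on simulated counts of 19326 genes with 200 changed for each comparison, the test recovered 87% to 95% of log2 fold changes of 1 against control and 96% to 100% of those of 2, with 5 to 11 false calls. No 2 libraries of a group were the same within sampling noise.

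The members and lists were chosen with earlier results of these data known. All 10 genes are named, with values per rat where a comparison was called or the adjusted p was lowest for a role. Listed genes are named if they were among the 2 rising or 2 falling genes with the smallest adjusted p under 0.05 in a treatment. The gene most like a member had the highest Pearson r. Histidine genes and Sdsl were added after values were seen. The alternatives were other size factors, filters and tests, thinned counts, a replicate block, fits of the groups compared and each rat left out. Aldh4a1, G6pc, Gcgr and Acta2 were not found under a usable symbol, and Aldh18a1 had too few counts to be tested, so they were not used here. Chromosome positions are those of the promoters on GRCr8 only, since Rnor_5.0 was not used here.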

Additional observations from a re-analysis of the deposited data

Results flagged for a closer look

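In the controls, 1 rat stood apart from the others for 2 genes by a gap test (Dixon's ratio of the gap to the range, 95% level). Control replicate 2 had 5086 CPM of Cps1, while the nearest of the other 7 controls had 7343 CPM, and 362 CPM of Otc, while the nearest had 440.2 CPM. In THI + IMZ, replicate 4 had 133 CPM of Cdh1, while the other 3 rats had 169 to 172 CPM. These are 3 of 60 groups of 4 or more rats that were tested, and chance gives about 1 in 20. Without Control replicate 2 no call for Cps1 or Otc changed in the 6 treatments (edgeR).

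Groups differed from each other in 3 results. Sds in IMZ + CTD lay 1.62 (SE 0.40) above the dose-weighted sum of its compounds on the log2 scale (adjusted p = 0.039, edgeR), with 4 of 4 rats of the mixture at 75.2 CPM or more and 3 of 3 CTD rats at 19.8 CPM or less. The test of any difference among the 6 treated groups gave adjusted p = 0.031 for Hal, with THI + CTD lowest, and adjusted p = 0.048 for Sds, with CTD lowest.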

How the results depend on the processing

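Of 3510 values of single genes under other settings (90 gene comparisons), 3407 kept their direction and their side of the threshold, 31 called values no longer passed, 18 now passed, and 54 changed sign. None of the sign changes was of a called value. Of the counts of called genes, 5 in CTD became 3 with a replicate block, 2 in THI + CTD became 1 with no filter, 1 with the block and 3 by the Wald test of DESeq2, 0 in IMZ became 2 by the Wald test of DESeq2 and 2 in a fit of only the groups compared, and 0 in IMZ + CTD became 2 by the Wald test and 1 with filterByExpr. Against the dose-weighted sum, the 1 gene in IMZ + CTD became 0 with the block. Across the 7 groups 4 became 1 with the block, and among the 6 treated groups 2 became 1 with no filter and 1 with the block. The sample labels do not say whether replicate numbers pair the rats, and the correlations neither showed nor excluded it. The 78 pairs of rats with the same number had a mean r of 0.029, from -0.27 to 0.42, against -0.0068 for the 326 other pairs. Of 27 rats, 9 correlated best with their own number. Under the block Sds in CTD (-1.58, adjusted p = 0.051), Cdh1 in CTD (-0.29, 0.22) and in THI + CTD (-0.18, 0.61) and Sds in IMZ + CTD against the sum (1.47, 0.060) were lost, and Cdh1 in THI (0.047) and Asl in THI + CTD against the sum (-0.032) changed sign, and the cause was not tested.

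With each rat left out, the counts ran from 1 to 5 in CTD (1 without CTD replicate 1, 2 without replicate 2), from 1 to 2 in THI + CTD, from 0 to 1 in IMZ and IMZ + CTD, from 0 to 1 in IMZ + CTD against the sum, from 3 to 5 across the 7 groups and from 0 to 3 among the treated groups. Uncalled values changed sign with a rat left out, with these ranges. Against control they were Otc (-0.081 to 0.081), Gls2 (-0.12 to 0.011) and Nags (-5.2e-05 to 0.11) in THI, Arg1 (-0.12 to 0.023) and Asl (-0.092 to 0.00014) in IMZ, and Arg1 (-0.035 to 0.05), Sds (-0.92 to 0.20) and Otc (-0.19 to 0.05) in THI + IMZ. Against the sum they were Otc (-0.075 to 0.17), Hal (-0.17 to 0.026), Gls2 (-0.077 to 0.13), Sds (-0.30 to 0.83) and Cdh1 (-0.11 to 0.0052) in THI + IMZ, Cps1 (-0.13 to 0.12), Otc (-0.016 to 0.10), Ass1 (-0.093 to 0.12), Asl (-0.18 to 0.18), Sds (-0.20 to 0.42) and Gls2 (-0.16 to 0.011) in THI + CTD, and Cps1 (-0.026 to 0.11), Cdh1 (-0.071 to 0.056), Gls2 (-0.020 to 0.11), Hal (-0.18 to 0.0057) and Nags (-0.11 to 0.030) in IMZ + CTD. Thinning all libraries to 31.8 M counts changed no call for the 10 genes.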
